A study of Mus musculus with 12 samples.

Results

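Marker genes of the non-parenchymal cells, the cells of the liver other than hepatocytes, were followed in liver RNA of sedentary and exercised mice. A list of 43 genes that mark Kupffer cells, endothelial cells, stellate cells, bile duct cells and other leukocytes was chosen by name, and all 43 were found among the 17432 genes of the count table. Of these, 39 had a mean of at least 10 counts over the 12 livers and are described, and 40 passed the filter on low counts and were tested. The livers came from male wild-type C57BL/6J mice aged 8 to 10 weeks that had been held on daytime feeding for 3 days. In the Exercise group, 6 mice ran on a treadmill at 14 m/min for 3 hours in the fed state. The 6 Sedentary mice were of the same genotype and on the same feeding schedule but did not run in that bout. In the paper's protocol, mice had short treadmill runs on the days of daytime feeding, and food was removed before the bout. Each library is 1 whole liver sample, so fewer cells of a type and less RNA per cell cannot be told apart in any value below. The labels name the replicates as separate samples of a group and say nothing more of them, so p-values measure the spread between these samples.

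Most liver RNA comes from hepatocytes, and the remaining cells line or surround the sinusoids, the thin blood channels between hepatocyte plates. Kupffer cells are the resident macrophages inside the sinusoids and clear microbes, aged red cells and debris through scavenger and complement receptors. Sinusoidal endothelial cells form the perforated channel wall, take up hyaluronan and modified proteins with stabilins and LYVE1, and send Wnt and R-spondin signals to hepatocytes near the central vein. Stellate cells sit behind that wall, store vitamin A as retinyl esters and lay down collagen when activated. Bile duct cells (cholangiocytes) line the ducts and carry simple-epithelium keratins.

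The promoter sequences of 3 members are shown so that the letters that lie before their starts can be read beside the values below, in which C1qb overlapped between the groups and Stab1 and Cd163 did not. They are the 250 bases before a RefSeq transcript start on GRCm38.p6 (equal to mm10), written 5′ to 3′ on the strand of the gene. For Stab1 and Cd163 that start lies some bases inside the gene as positioned below. C1qb, a chain of complement C1q and among the most abundant macrophage markers here, has chr4:136886201-136886450 on the minus strand. Stab1, encoding the scavenger receptor stabilin-1, has chr14:31168642-31168891 on the minus strand. Cd163, encoding the macrophage receptor for haptoglobin-bound hemoglobin, has chr6:124304401-124304650 on the plus strand. Capitals mark GAGGAA, the core bound by PU.1, a transcription factor of macrophages.
C1qb: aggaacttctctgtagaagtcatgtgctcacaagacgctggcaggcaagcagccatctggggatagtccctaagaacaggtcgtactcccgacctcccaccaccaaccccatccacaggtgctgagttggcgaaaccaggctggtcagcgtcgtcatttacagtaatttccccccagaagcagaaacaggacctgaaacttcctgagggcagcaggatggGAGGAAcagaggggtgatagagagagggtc
Stab1: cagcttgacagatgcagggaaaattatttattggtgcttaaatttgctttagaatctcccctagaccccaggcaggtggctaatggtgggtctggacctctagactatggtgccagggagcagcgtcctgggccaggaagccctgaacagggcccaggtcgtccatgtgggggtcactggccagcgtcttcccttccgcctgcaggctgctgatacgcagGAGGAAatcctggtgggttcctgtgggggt
Cd163: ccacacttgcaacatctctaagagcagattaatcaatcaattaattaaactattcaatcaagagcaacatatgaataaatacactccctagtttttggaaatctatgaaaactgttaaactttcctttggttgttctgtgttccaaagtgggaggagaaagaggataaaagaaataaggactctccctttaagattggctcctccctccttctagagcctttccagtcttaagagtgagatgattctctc
The C1qb and Stab1 windows each held GAGGAA 30 bases before the start, and the Cd163 window held it on neither strand. RefSeq windows were found for 26 member genes. GAGGAA or its reverse complement was in the windows of 11 of them, including 5 of 8 Kupffer cell genes and 2 of 7 genes that changed with exercise (Stab1 and Tie1). It was in 23.3% of all 32851 promoter windows. The GATA core AGATAA was in the window of Ptprc alone among the 26 (9.99% of all windows). The palindromic glucocorticoid receptor element, searched with 3 free bases between its arms, was in that of Epcam alone (0.387% of all windows) and in none of the 7 changed genes. Such matches are letters in a window and say nothing of binding.

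Between genes, levels were compared as FPKM, which is scaled for transcript length. The 39 described markers together held 0.0486% of all FPKM, against 13.0% for 9 hepatocyte genes that include albumin. Dcn, the matrix proteoglycan decorin, was the highest marker at a mean of 64.2 FPKM over the 12 livers (46.7 to 75.9). Clec4g, a C-type lectin of the sinusoidal wall, followed at 36.1 FPKM (28.5 to 47.0). The 3 chains of complement C1q, which macrophages secrete, had 25.3 (C1qa), 25.3 (C1qb) and 24.9 FPKM (C1qc), and their ranges overlapped. Spp1, the secreted phosphoprotein osteopontin, had 20.6 FPKM and Eng, the TGF-beta co-receptor endoglin, 17.7 FPKM. Among the described markers, the lowest means belonged to Epcam, an adhesion protein of bile duct cells (0.532 FPKM), and Krt7, a bile duct keratin (0.578 FPKM). Dcn and Spp1 stood well above the other members of their cell types, the next of which were Reln at 2.55 FPKM and Krt19 at 1.76 FPKM.

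**Figure D1:**
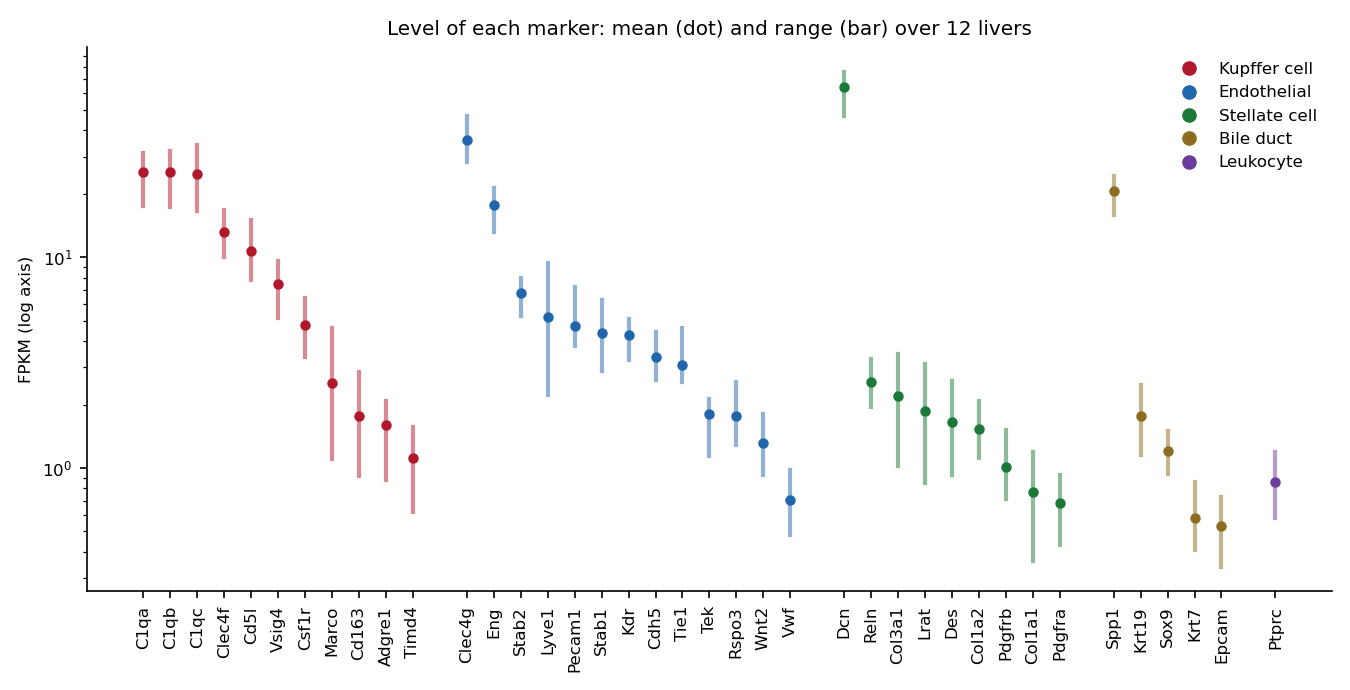
Level of the 39 described markers in FPKM on a log axis, with the mean as a dot and the lowest and highest of the 12 livers as a bar, grouped by cell type. Dcn is highest at 64.2 FPKM, Clec4g is next at 36.1 FPKM and the 3 C1q chains lie near 25 FPKM with overlapping bars.

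Exercise was compared with Sedentary in a single edgeR quasi-likelihood fit over 12344 genes with Benjamini-Hochberg adjustment over all of them. Of the 40 markers tested, 9 changed at an adjusted p under 0.05, which is 22.5%, against 42.4% of all genes tested. Cd163, Stab1, Lyve1, Pecam1, Tie1 and Pdgfra were higher after exercise, and Kdr, Lrat and Des were lower. The 6 higher calls are 15.0% of the markers (21.1% of all genes tested were higher), and the 3 lower calls are 7.5% (21.3% of all genes were lower). In 4 markers, all higher, no exercised liver overlapped with a sedentary one, which held for 22.3% of all genes tested in either direction and 11.7% in the higher direction. The median log2 fold change over the 40 markers was 0.08, against -0.0028 over all genes, with 27 values above 0 and 13 below. This median had no fixed sign, since it was -0.01 with scaling by library size alone, -0.02 on log2(FPKM + 0.1) and 0.001 without Sedentary livers 4 and 5. At an adjusted p under 0.01, 5 of the 9 calls were left, all higher (29.0% of all genes tested passed that threshold, 14.8% in the higher direction).

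**Figure D2:**
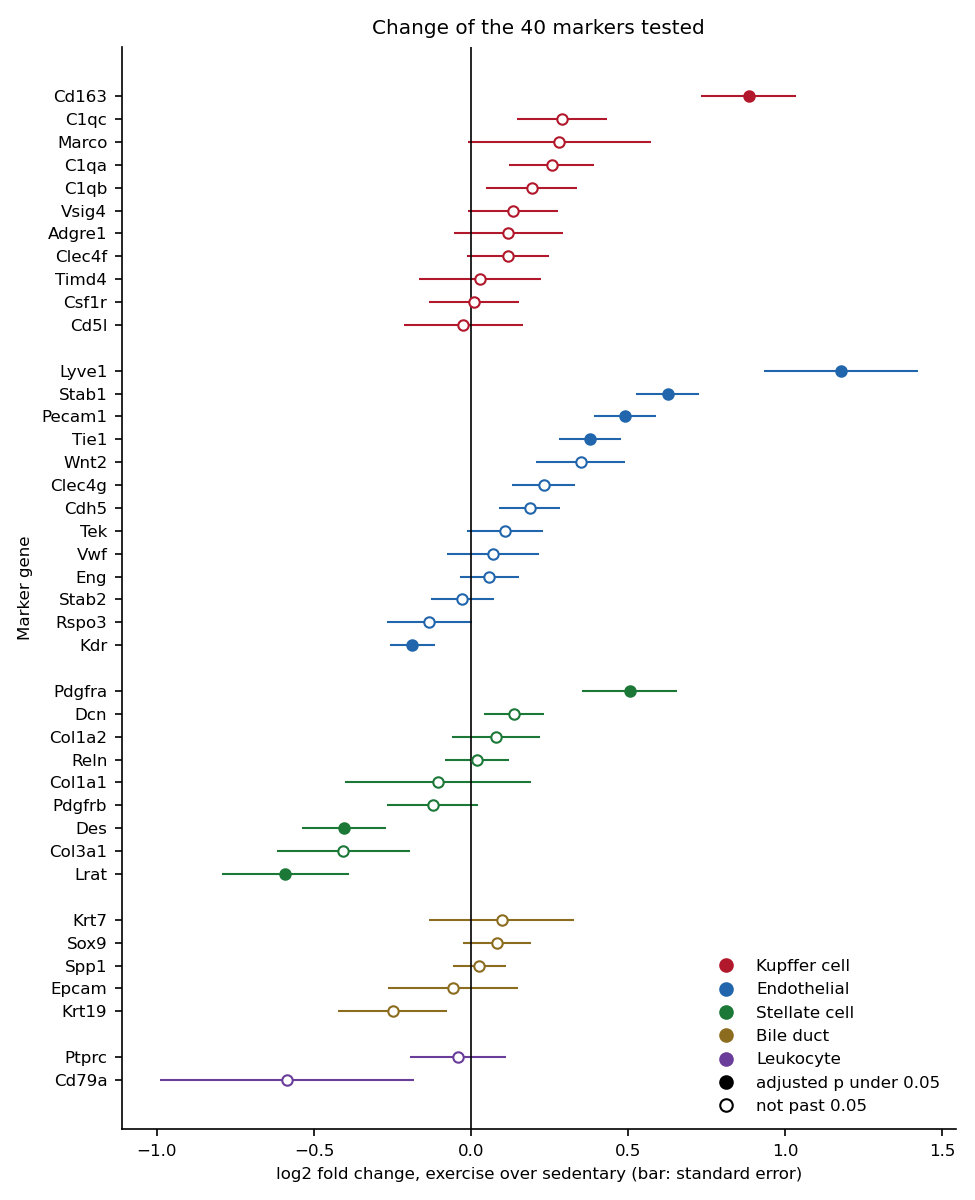
Log2 fold change of Exercise over Sedentary for the 40 markers tested, with the standard error as a bar. Filled points (9 markers) passed an adjusted p of 0.05, of which Lyve1 at 1.18 has the highest value and Lrat at -0.59 the lowest.

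Among the 11 Kupffer cell markers, Cd163 rose and the other 10 did not pass the test, so that 9.09% changed against 42.4% of all genes tested. Cd163 (gene ID 93671, chromosome 6, 124304636 to 124330529 of mm10) ranged over 3.82, 4.88 and 7.75 CPM (lowest, median and highest library-scaled counts) in sedentary livers. It ranged over 7.93, 9.89 and 12.4 CPM in exercised livers. Each exercised liver was above each sedentary one, and the highest sedentary liver (Sedentary 6) came close to the lowest exercised liver (Exercise 1). The means were 5.30 ± 1.43 CPM (SD, n = 6) and 9.78 ± 1.57 CPM (SD, n = 6), with a log2 fold change of 0.88 (standard error 0.15, edgeR adjusted p = 0.000201). The two-sided exact permutation test over 924 relabellings gave p = 0.00216, the smallest it can give. Leaving out any 1 liver gave Cd163 values of 0.80 to 1.02, each past the test. Counts of Cd163 were not whole numbers in 10 of the 12 livers, as where reads are shared between genes.

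The 3 C1q chains, the most abundant Kupffer cell markers, overlapped between the groups. C1qa ranged over 17.6, 25.2 and 29.6 CPM in sedentary livers and 20.4, 29.5 and 33.4 CPM in exercised livers (log2 fold change 0.26, standard error 0.14, edgeR adjusted p = 0.151). Without Exercise 1, the lowest exercised liver, it passed at 0.34 (adjusted p = 0.0325). C1qb ranged over 17.8, 25.4 and 31.1 CPM and then 22.4, 29.5 and 33.6 CPM (0.19, standard error 0.14, adjusted p = 0.312). C1qc had a log2 fold change of 0.29 (adjusted p = 0.127 in the same edgeR fit). The receptors that take up microbes and apoptotic cells were also not past the test. Their log2 fold changes in the same fit were 0.12 for the lectin Clec4f, 0.13 for the complement receptor Vsig4, 0.28 for the scavenger receptor Marco and 0.03 for the phosphatidylserine receptor Timd4, with adjusted p from 0.476 to 0.924. Csf1r, the receptor of the main macrophage growth factor, had 0.01 and overlaps Hmgxb3 on the opposite strand, which rose by 0.23 on the log2 scale (edgeR adjusted p = 0.0224). Adgre1, which encodes F4/80, had 0.12 and Cd5l, a secreted macrophage protein, had -0.03. The median over the 11 Kupffer cell markers was 0.13, with 10 values above 0. Without Sedentary livers 4 and 5 it was -0.01, with 4 above 0.

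Of the 13 endothelial markers, 4 rose and 1 fell, so that 38.5% changed against 42.4% of all genes tested (30.8% against 21.1% for higher). The median log2 fold change was 0.19, with 10 values above 0 (7 on log2(FPKM + 0.1)). The scavenger receptors of the sinusoidal wall did not move alike. Stab1 (gene ID 192187, chromosome 14, 31139017 to 31168651) ranged over 21.8, 28.9 and 31.3 CPM in sedentary livers and 34.8, 42.8 and 51.7 CPM in exercised livers. No exercised liver reached down to a sedentary one. Its counts were not whole numbers in any of the 12 livers, as where reads are shared between genes, and the gene overlaps Nt5dc2 on the opposite strand, which had a log2 fold change of -0.13 (edgeR adjusted p = 0.472). The means were 27.6 ± 3.82 CPM and 42.6 ± 5.86 CPM (SD, n = 6 each, log2 fold change 0.63, standard error 0.10, edgeR adjusted p = 0.000119, exact permutation p = 0.00216). Its close relative Stab2, the hyaluronan receptor stabilin-2, ranged over 31.1, 36.1 and 40.7 CPM and then 29.4, 34.1 and 44.3 CPM. Stab2 had a log2 fold change of -0.03 (standard error 0.10, edgeR adjusted p = 0.851), and the livers of both groups were mixed.

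Lyve1 (gene ID 114332, chromosome 7, 110850607 to 110862953), a hyaluronan receptor of sinusoidal and lymphatic endothelium, had the highest log2 fold change of the markers tested. It ranged over 5.87, 7.17 and 13.6 CPM in sedentary livers and 11.6, 19.5 and 23.8 CPM in exercised livers. Sedentary 6 lay above Exercise 1, and the other livers were apart. The means were 8.18 ± 3.04 CPM and 18.5 ± 4.70 CPM (SD, n = 6 each), with a log2 fold change of 1.18 (standard error 0.24, edgeR adjusted p = 0.00245, exact permutation p = 0.00433). Leaving out any 1 liver gave 1.09 to 1.38, each past the test.

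Pecam1 (gene ID 18613, chromosome 11, 106654213 to 106715281), the junction protein CD31 of endothelium, ranged over 11.2, 12.2 and 14.1 CPM in sedentary livers and 14.7, 16.5 and 23.2 CPM in exercised livers. The groups did not overlap (log2 fold change 0.49, standard error 0.10, edgeR adjusted p = 0.000675, exact permutation p = 0.00216). Tie1 (gene ID 21846, chromosome 4, 118471191 to 118489849), an orphan receptor kinase that acts with the angiopoietin receptor, ranged over 9.84, 10.2 and 10.8 CPM and then 11.4, 12.0 and 17.4 CPM. Its groups did not overlap either, and Exercise 2 and Exercise 6 were well above the other exercised livers. Tie1 had a log2 fold change of 0.38 (standard error 0.10, edgeR adjusted p = 0.00475, exact permutation p = 0.00216). On log2(FPKM + 0.1) with limma it was 0.25 and did not pass (adjusted p = 0.0719). Tek, the angiopoietin receptor itself, had 0.11 (edgeR adjusted p = 0.502).

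Kdr (gene ID 16542, chromosome 5, 75932827 to 75979072), the main receptor for VEGF-A, was the endothelial marker that fell. It ranged over 24.2, 26.9 and 28.6 CPM in sedentary livers and 21.0, 22.4 and 27.2 CPM in exercised livers, and Exercise 4 and Exercise 6 lay among the sedentary values. The log2 fold change was -0.19 (standard error 0.07, edgeR adjusted p = 0.0412, exact permutation p = 0.0346). The call was lost when Exercise 1, 2, 3 or 5 or Sedentary 2, 3, 4 or 6 was left out. In those 8 fits the log2 fold change of Kdr was -0.19 to -0.15 with adjusted p from 0.0653 to 0.112.

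The remaining endothelial markers did not pass the test. Clec4g ranged over 32.0, 39.2 and 46.5 CPM in sedentary livers and 39.0, 45.5 and 57.7 CPM in exercised livers, with overlap (log2 fold change 0.23, standard error 0.10, edgeR adjusted p = 0.0755). It passed when Exercise 1, Exercise 3 or Sedentary 4 was left out (0.27, 0.28 and 0.28). Eng ranged over 50.4, 59.0 and 65.6 CPM and then 49.3, 63.4 and 75.3 CPM (0.06, standard error 0.10, adjusted p = 0.66). Eng overlaps Fpgs on the opposite strand, which fell by 0.50 on the log2 scale (edgeR adjusted p = 2.93e-06). The central vein signals Wnt2 and Rspo3 had log2 fold changes of 0.35 (adjusted p = 0.0572) and -0.13 (adjusted p = 0.458). Wnt2 passed when Exercise 3, Exercise 5 or Sedentary 3 was left out (0.40, 0.42 and 0.40, adjusted p = 0.0356, 0.0276 and 0.0413). Counts were not whole numbers in 11 livers for Eng and in all 12 for Wnt2. Cdh5, the endothelial junction cadherin, had 0.19, and Vwf, the clotting factor carrier of larger vessels, had 0.07.

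Of the 9 stellate cell and fibroblast markers, 1 rose and 2 fell, so that 33.3% changed against 42.4% of all genes tested (22.2% against 21.3% for lower). The median log2 fold change was -0.10 (0.01 without Exercise 1). Lrat (gene ID 79235, chromosome 3, 82892582 to 82903974), the enzyme that makes the retinyl esters stellate cells store, ranged over 7.05, 12.7 and 15.2 CPM in sedentary livers. It ranged over 4.93, 8.16 and 9.70 CPM in exercised livers. The 4 sedentary livers 1 to 4 were above all exercised livers, and Sedentary 5 and Sedentary 6 lay among them. The means were 11.8 ± 3.16 CPM and 7.81 ± 1.79 CPM (SD, n = 6 each, log2 fold change -0.59, standard error 0.20, edgeR adjusted p = 0.0316, exact permutation p = 0.0346). The call was lost when Exercise 2, 3 or 6 or Sedentary 1, 2, 3 or 4 was left out, with log2 fold changes from -0.59 to -0.49 and adjusted p from 0.0527 to 0.0706. It was also lost with no filter on low counts (adjusted p = 0.0553).

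Des (gene ID 13346, chromosome 1, 75360292 to 75368579), the intermediate filament desmin of stellate cells and muscle, ranged over 4.33, 5.46 and 7.45 CPM in sedentary livers. It ranged over 3.07, 4.41 and 4.86 CPM in exercised livers, with Sedentary 3 among the exercised values. The log2 fold change was -0.41 (standard error 0.13, edgeR adjusted p = 0.0206, exact permutation p = 0.0152). It did not pass without Exercise 3 (-0.32, adjusted p = 0.0503), without Sedentary 1 (-0.31, adjusted p = 0.0588) or without Sedentary livers 4 and 5 (-0.38, adjusted p = 0.0603). Of 7 heart and skeletal muscle genes, 5 were tested and all 5 were lower after exercise (DESeq2 called 2 of them), where 21.3% of all genes tested were lower. Their summed level was 4.96 to 11.3 FPKM in sedentary livers and 0.30 to 4.90 FPKM in exercised livers, and Sedentary 1, the liver with most Des, had the highest sum. In Exercise 1, where the sum was 4.90 FPKM, Des was at 4.76 CPM, and in the other exercised livers, with sums of 0.30 to 1.11 FPKM, it was at 3.07 to 4.86 CPM. The part of muscle RNA in the Des result was not tested.

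Pdgfra (gene ID 18595, chromosome 5, 75151322 to 75198206), a growth factor receptor of fibroblasts and stellate cells, ranged over 2.90, 3.70 and 4.02 CPM in sedentary livers and 2.85, 5.59 and 5.95 CPM in exercised livers. Exercise 1 was the lowest of all 12 livers, and the other 5 exercised livers were above every sedentary one. The log2 fold change was 0.50 (standard error 0.15, edgeR adjusted p = 0.0124, exact permutation p = 0.0238). On log2(FPKM + 0.1) with limma it was 0.31 and did not pass (adjusted p = 0.118). Pdgfrb, the receptor more typical of stellate cells and pericytes, had -0.12 (edgeR adjusted p = 0.534).

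The matrix genes of the stellate list did not pass the test. Dcn ranged over 95.4, 113 and 122 CPM in sedentary livers and 88.6, 128 and 137 CPM in exercised livers (log2 fold change 0.14, standard error 0.10, edgeR adjusted p = 0.272). Exercise 1 was again lowest, and without it Dcn passed at 0.22 (adjusted p = 0.025). Reln, a secreted glycoprotein of stellate cells, ranged over 24.5, 29.0 and 35.3 CPM and then 23.5, 29.6 and 34.4 CPM (0.02, standard error 0.10, adjusted p = 0.901). The fibrillar collagens Col1a1, Col1a2 and Col3a1 had log2 fold changes of -0.10, 0.08 and -0.41 (edgeR adjusted p = 0.81, 0.686 and 0.149). Col3a1 and Col1a1 were lowest in Exercise 1 and Exercise 3, as the plot of markers in each liver shows.

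**Figure D3:**
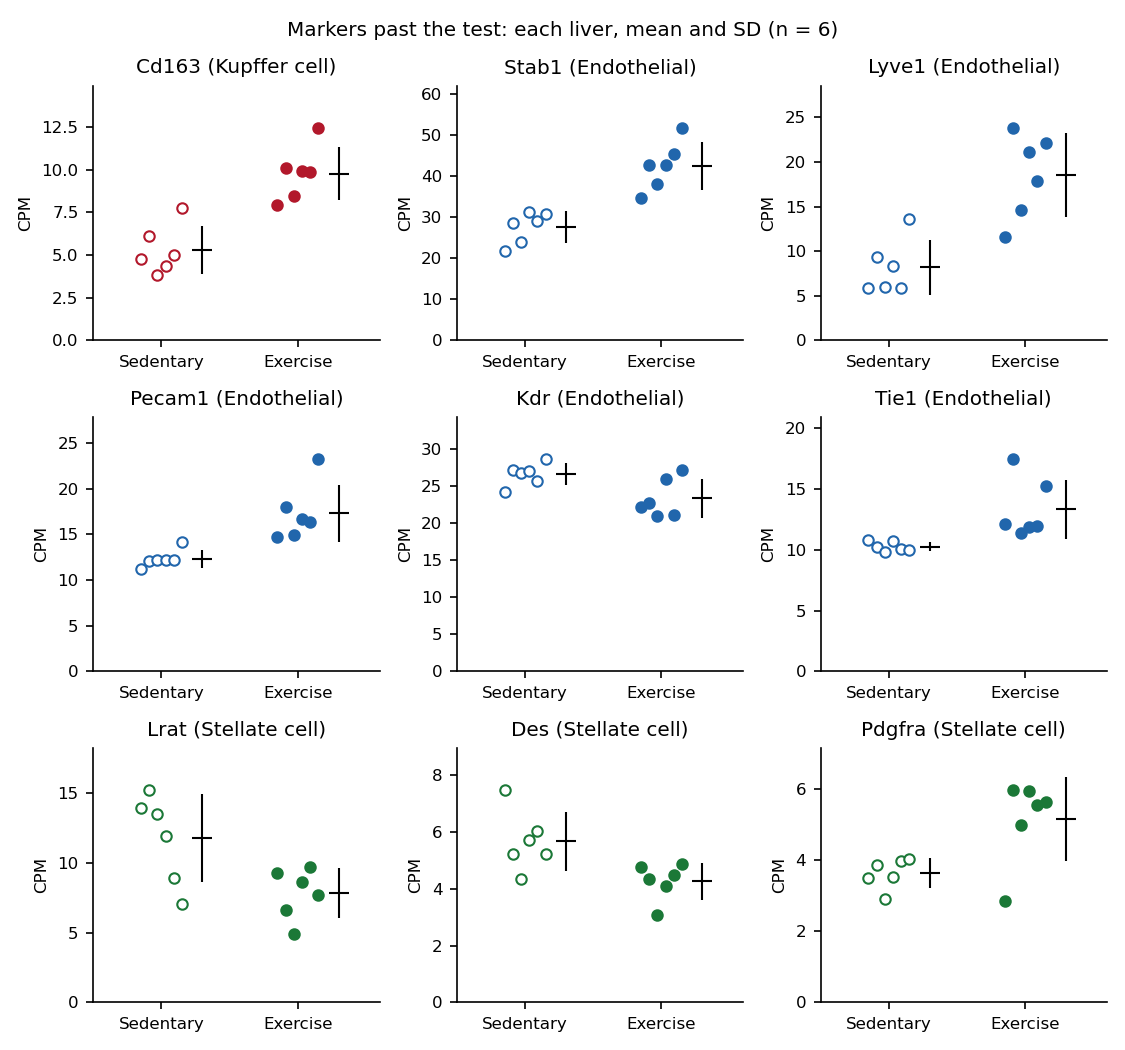
The 9 markers that passed the test, in CPM with axes from 0, each liver as a point (open, Sedentary; filled, Exercise) beside the mean and SD of its group (n = 6). The groups are apart for Cd163, Stab1, Pecam1 and Tie1, and Exercise 1 sits at 2.85 CPM below all other livers for Pdgfra.

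None of the 5 bile duct markers and neither of the 2 leukocyte markers tested passed (in edgeR, 0 of these 7 had an unadjusted p under 0.05, and DESeq2 called 0). Of all genes tested, 42.4% passed. Spp1 ranged over 22.4, 28.0 and 32.2 CPM in sedentary livers and 25.7, 28.4 and 32.8 CPM in exercised livers (log2 fold change 0.03, standard error 0.08, edgeR adjusted p = 0.84). Krt19, a duct keratin, ranged over 1.85, 2.31 and 2.45 CPM and then 1.33, 1.71 and 2.82 CPM (-0.25, standard error 0.17, adjusted p = 0.264). Exercise 2 was the highest of all livers for Krt19, and without it the log2 fold change was -0.42 (adjusted p = 0.0385). Sox9, a transcription factor of the duct lineage, had 0.08, Krt7 had 0.10 and Epcam had -0.06. Ptprc, which encodes CD45 of all leukocytes, ranged over 2.88, 4.27 and 5.50 CPM and then 3.13, 4.25 and 4.69 CPM (-0.04, standard error 0.15, adjusted p = 0.857).

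Of the other leukocyte markers, the B cell gene Cd79a was tested at a mean of 9.92 counts (log2 fold change -0.59, standard error 0.40, edgeR adjusted p = 0.262). The T cell gene Cd3e had a mean of 3.25 counts and the neutrophil genes S100a8 and S100a9 had 2.50 and 4.17. The last 3 of these had too few counts to be tested.

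The order of the livers was compared among the markers of a cell type. In the Sedentary group, livers 4 and 5 were the lowest pair for 10 of 11 Kupffer cell markers and for 0 of 13 endothelial, 0 of 9 stellate and 0 of 5 bile duct markers, and also for Ptprc, the leukocyte marker described. Livers 1 and 2 were each among the highest pair for 10 of 11. The summed level of the 11 markers was 83.9 and 84.3 FPKM in Sedentary 4 and 5, 116 to 147 FPKM in the other sedentary livers and 94.6 to 147 FPKM in exercised livers. The group means were 115 ± 26.8 FPKM and 122 ± 17.7 FPKM (SD, n = 6 each), so that the groups differed by less than this spread. FPKM was taken as deposited, without the scaling between libraries used for CPM. On log2(FPKM + 0.1) the median log2 fold change over all genes tested was -0.09. In the Exercise group, liver 1 was lowest for 8 of 11 Kupffer cell markers, and liver 6 was highest for 11 of 13 endothelial markers. Exercise 3 was among the lowest pair for 12 of 13 endothelial and 8 of 9 stellate cell markers. These markers share a library and its scaling, and the shared order of livers is a description.

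**Figure D4:**
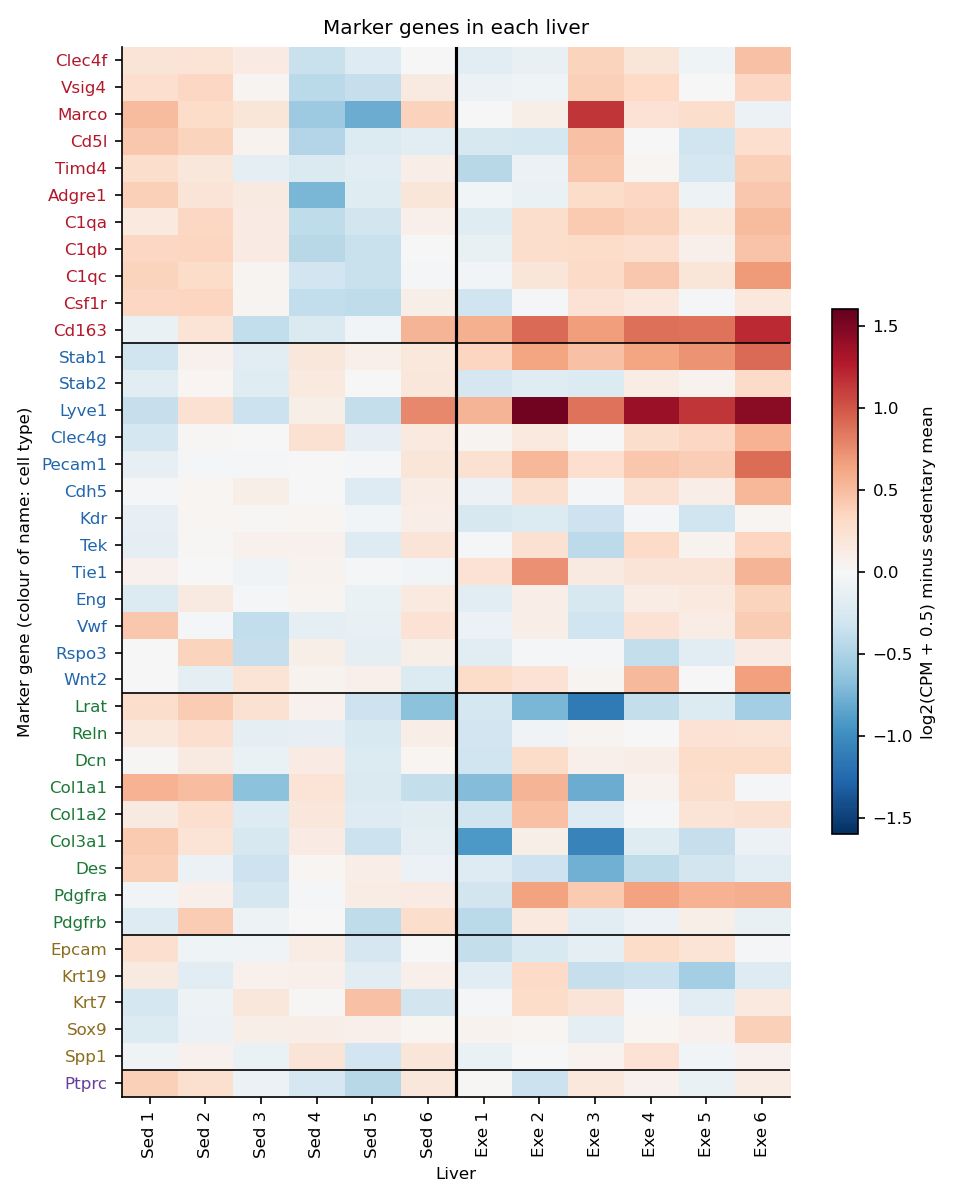
Each described marker (rows, by cell type) in each liver (columns, Sedentary left and Exercise right) as log2(CPM + 0.5) minus the sedentary mean of the gene. Sedentary 4 and 5 are the lowest sedentary livers in 10 of 11 Kupffer cell rows, and Cd163, Stab1, Lyve1 and Pecam1 are red in all exercised livers.

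Summed over their described members, the other cell types also overlapped between the groups. Endothelial markers had 86.8 ± 10.4 FPKM in sedentary and 95.6 ± 15.3 FPKM in exercised livers. Stellate markers had 76.8 ± 10.1 and 76.1 ± 13.0 FPKM, and bile duct markers had 25.5 ± 3.51 and 23.9 ± 1.92 FPKM (SD, n = 6 each). Most of the stellate sum was Dcn (mean of 64.2 FPKM over the 12 livers), and most of the bile duct sum was Spp1 (20.6 FPKM). Clec4g and Eng (36.1 and 17.7 FPKM) led the endothelial sum. The sums thus say little of members with low FPKM, such as Lrat, Des, Pdgfra and Lyve1. They also lack the scaling between libraries used for CPM. The median biological coefficient of variation, the spread between livers beyond counting error, was 17.0% for Kupffer cell, 12.3% for endothelial, 15.6% for stellate and 13.99% for bile duct markers, against 10.1% for all genes tested. Shares of markers called, such as 9.09% of Kupffer cell markers, were set beside 42.4% of all genes without allowing for this wider spread.

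The 3 C1q chains, whose products assemble together, kept closer ratios than levels. Over the 12 livers the log2 ratio of C1qa to C1qb had an SD of 0.0879, where the log2 FPKM of C1qa and of C1qb had SDs of 0.293 and 0.301. C1qa to C1qc had an SD of 0.122 and C1qb to C1qc of 0.101. Col1a1 and Col1a2, the chains of type I collagen, had a looser ratio, with an SD of 0.343 against 0.601 and 0.305 for each gene. For the neutrophil pair S100a8 and S100a9 the SD was 1.15 over the 10 livers in which both were counted and 0.656 without Sedentary 6, and over all 12 livers the pair summed to 1 to 13 counts.

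Each changed marker was also set against the mean log2 level of the other described markers of its cell type in the same liver, which is a description since these genes had been picked by their change. Kdr was lower relative to the other 12 endothelial markers in every exercised liver (difference of group means -0.47 on the log2 scale), and Stab1 (0.41) and Pecam1 (0.24) were higher in every one, without overlap. The 12 markers set against Kdr include the 4 that rose, and they were higher by 0.28 on average after exercise. Relative Kdr thus holds this rise as well as the log2 fold change of Kdr itself, -0.19. Relative Cd163 (0.70), Lyve1 (0.99) and Pdgfra (0.59) overlapped between the groups, as did Tie1 (0.11), Lrat (-0.50) and Des (-0.30). The other 10 Kupffer cell markers differed by 0.15 between the groups on average.

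**Figure D5:**
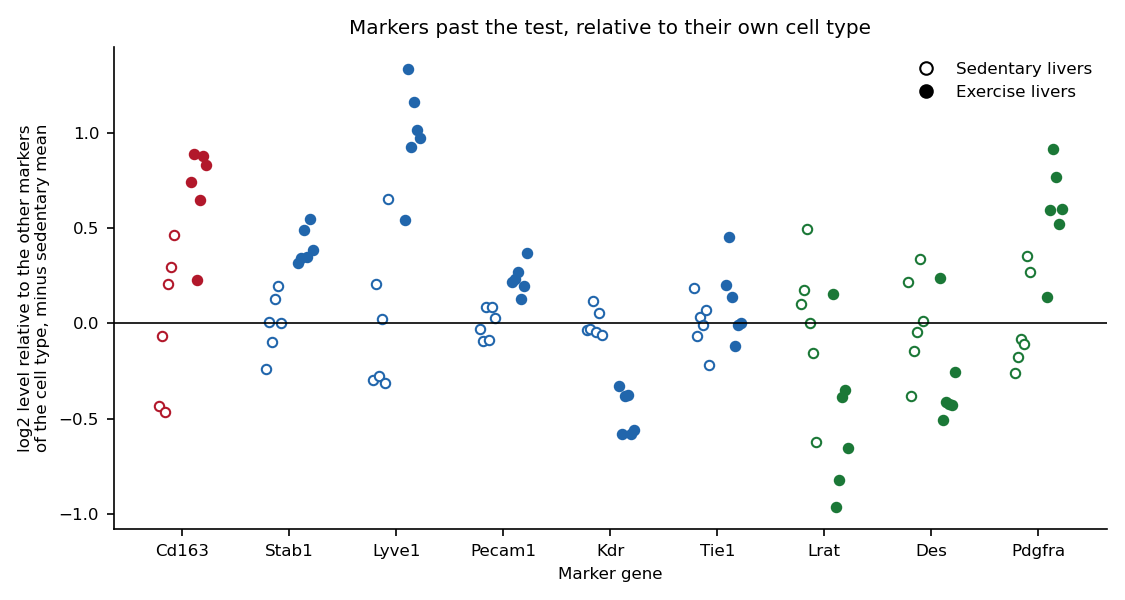
The 9 changed markers in each liver, as log2 level relative to the mean of the other markers of their cell type, minus the sedentary mean (open, Sedentary; filled, Exercise). Kdr lies below and Stab1 and Pecam1 above all sedentary livers in the exercised group.

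Other genes of the same cell types, from longer lists, gave the surroundings of these changes. Of 29 further endothelial genes, all tested, 12 rose and 2 fell, which is 48.3% against 42.4% of all genes. By direction, 41.4% were higher against 21.1% of all genes, and 6.9% were lower against 21.3%. The median log2 fold change was 0.29. Thbd, the anticoagulant receptor thrombomodulin, rose from 2.53 ± 0.37 to 6.99 ± 1.71 CPM (SD, n = 6 each, log2 fold change 1.47, edgeR adjusted p = 1.31e-06). Gata4, a transcription factor of sinusoidal endothelium, fell by 0.79 on the log2 scale (adjusted p = 9.25e-06) and Cldn5, a tight junction claudin, fell by 0.88 (adjusted p = 1.21e-05). Gata4 and Cldn5 did not overlap between the groups, and nor did Thbd, but these 3 were named for having the smallest p. Of the 29 genes, 4 higher and 2 lower ones did not overlap, where 11.7% and 10.6% of all genes tested did not.

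Of 22 further Kupffer cell and myeloid genes, 21 were tested, of which 3 changed (14.3% against 42.4% of all genes tested). Id3, an inhibitor of helix-loop-helix factors, fell by 0.36 on the log2 scale (adjusted p = 0.00716), and Aif1, which encodes the macrophage protein IBA1, fell by 0.61 at 1.70 ± 0.41 CPM in sedentary livers (adjusted p = 0.0144).

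Of 18 further stellate cell genes, 2 rose and 2 fell (22.2% against 42.4% of all genes tested). Hhip, a hedgehog inhibitor, fell by 0.75 on the log2 scale (edgeR adjusted p = 0.00586) and Ngfr, a neurotrophin receptor, fell by 0.77 (adjusted p = 0.0101). Hgf, the hepatocyte growth factor, rose by 0.53 (adjusted p = 0.0323). Of 12 further bile duct genes, 8 were tested, of which 1 rose and 4 fell (62.5% against 42.4% of all genes tested). Krt8 fell by 0.37 (edgeR adjusted p = 0.00165), and Tm4sf4 rose by 0.60 (adjusted p = 0.00029). Krt8, a keratin that hepatocytes also make, had means of 170 and 132 CPM, far above Krt19, so this list does not mark duct cells alone. Of 21 further leukocyte genes, 8 were tested and none passed (edgeR 0, with 0 at an unadjusted p under 0.05, and DESeq2 0).

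Markers of cells outside the list moved as follows, and apart from the values given for Des their part in the results was not tested. The 5 erythroid genes summed to 745 to 1191 FPKM in sedentary livers and 684 to 916 FPKM in exercised livers. None passed the test (in edgeR 0 of 5, with 1 at an unadjusted p under 0.05), where 42.4% of all genes tested passed. All 5 erythroid genes had log2 fold changes below 0, from -0.32 to -0.18. Among 9 hepatocyte genes, 2 rose (Hnf4a and Alb), which is 22.2% against 21.1% of all genes tested, and the others did not pass. Of the adipocyte and mesothelial lists, 1 gene each was tested and neither passed. The adipocyte genes Adipoq and Plin1 were near 0.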

How the data were processed

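RNA-Seq of 12 mouse livers was analysed, 6 Sedentary and 6 Exercise, grouped by the sample labels. The authors deposited 1 table, which holds estimated counts and FPKM for each gene and library. Per the labels, the submitters' processing notes name Bowtie2 2.3.4.3, RSEM 1.3.1 and the mm10 build. Strand is not given in the sources used here, so reads of a gene and an overlapping gene on the other strand (Stab1 with Nt5dc2, Eng with Fpgs, Csf1r with Hmgxb3) cannot be told apart. The authors' estimated counts are unscaled and 31.3% are not whole. FPKM, as deposited, divides by depth and transcript length. Totals were 18745379 to 19324461 counts per library, so counting error matters only for genes with few counts.

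Counts were rounded and scaled by TMM (factors 0.914 to 1.09) and filtered with filterByExpr at 10 counts. The whole table was fitted with robust edgeR 4.0.16 quasi-likelihood models (R 4.3.3) on group alone, and p-values were adjusted by Benjamini-Hochberg and called under 0.05. CPM are TMM-scaled. Single genes were also tested by a two-sided exact permutation test of mean log2(CPM + 0.5). FPKM was taken as log2 with a pseudocount of 0.1 or 1 in limma 3.58.1, which shrinks the fold changes of low genes. FPKM was also not TMM-scaled, and the median log2 fold change over all genes tested was -0.09 and -0.07 in these 2 fits. In the main fit it was -0.0028. The edgeR step was checked on simulated counts. The members, wider lists, tests and alternatives were chosen with earlier results of these data known. Named in full were members with an adjusted p under 0.05 and the 2 with the highest FPKM of each cell type (C1qc, Stab2 and others were added for context), and in each wider list the 3 with the smallest p among those that passed. Some genes that this rule names are not reported here. Alternatives were RLE, upper quartile and library size scaling, no filter, at least 10 counts in every library, DESeq2 1.42.0, limma-voom, limma on FPKM, the replicate number as a block, a threshold of 0.01 and leaving out each liver. The fit without Sedentary livers 4 and 5 was chosen after seeing the data. Gene positions and promoter windows are from RefSeq, and overlapping genes were found in GENCODE M21. Sequences and motifs were read with Python 3.11.15.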

Additional observations from a re-analysis of the deposited data

Results flagged for a closer look

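For each described marker, the highest and lowest liver of each group of 6 were compared with the rest by Dixon's ratio (gap to the nearest liver over the range of the group, at its 95% limit). Of 78 groups, 5 were past the limit, where chance alone would give 3.9. Marco was 9.50 CPM in Exercise 3, where the next liver had 5.01 CPM (ratio 0.782). Pdgfra was 2.85 CPM in Exercise 1, below the next at 4.98 CPM (0.688), and without that liver its log2 fold change was 0.63. Pecam1 was 14.1 CPM in Sedentary 6, where the next had 12.2 CPM (0.655). Krt19 was 2.82 CPM in Exercise 2, with the next at 1.86 CPM (0.645). Sox9 was 6.35 CPM in Exercise 6, with the next at 5.01 CPM (0.633).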

How the results depend on the processing

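The count of 9 changed markers was also found with RLE, upper quartile and library size scaling, with at least 10 counts in every library, with DESeq2 and with limma-voom, for the same 9 genes. It was 8 with no filter (Lrat lost), 7 with limma on either FPKM scale (Pdgfra and Tie1 lost) and 5 at an adjusted p under 0.01. With 1 liver left out it was 7 to 12, the highest without Exercise 1, where C1qa, Cdh5, Clec4g and Dcn were added and Kdr was lost. Without Exercise 3 none of the 3 lower calls was left. Without Sedentary livers 4 and 5 the count was 7 (Kdr and Des lost). Cd163, Stab1, Lyve1 and Pecam1 passed under every alternative run at the 0.05 threshold. For 18 markers, none of them called, the sign of the log2 fold change turned under at least 1 alternative. Over all genes, leaving out 1 liver gave 4739 to 5222 calls, and scaling by library size alone left 32.1% of calls in the higher direction, against 49.8%.

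Same-numbered livers did not deviate together (r from -0.0926 to 0.159 over 6 pairs, 1 of 6 closest to its own number), and nothing in the labels pairs them. With the replicate block, 9 markers were called, of which 8 were shared (Lrat lost, Clec4g gained), and 4956 of all genes. Cd3e, S100a8 and S100a9 had too few counts to be tested.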
